A study of Mus musculus with 10 samples.

Results

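SOX9 peaks that lay between gene loci and were found in hair follicle stem cells (HFSCs) but not in interfollicular epidermis (IFE) numbered 334, of 8181 peaks in the first HFSC list. Each overlapped a peak of the second HFSC list by at least 1 bp, overlapped no peak of the IFE list, overlapped no gene locus of the deposited expression table, and stood more than 1 kb from every locus. The peaks were thus selected on list membership and position, so presence in HFSC lists, absence from the IFE list and distance from genes are described here and not tested. The other HFSC list held 2989 peaks and the IFE list 5209.

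SOX9 is a transcription factor of the SOX family whose HMG box binds the minor groove of DNA and bends it. In the skin it marks the bulge of the hair follicle, where resting stem cells are kept between cycles of hair growth, and it is known to be needed for their maintenance. Sites far from genes are often enhancers, which act on promoters over long distances and tend to differ more between cell types than promoters do. Whether any of the 334 regions is an enhancer was not measured in these data.

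Binding was measured by chromatin immunoprecipitation and sequencing (ChIP-seq) with an antibody to SOX9, in 2 libraries of HFSCs and 1 of IFE cells. All 3 came from untreated CD-1 females of postnatal days 52 to 60. Cells were sorted from back skins whose follicles were at rest (telogen). HFSCs were integrin α6hi, CD34+ and ScaI-, and IFE cells integrin α6hi, CD34- and ScaI-, spelled as in the labels. Expression was measured by RNA sequencing in 4 HFSC libraries of a C57BL6, mixed background, 2 labelled Sox9 cKO (conditional knockout) and 2 control. In each genotype the first replicate came from males aged 75 days and the other from females aged 80 days. Cells of both genotypes were integrin α6hi, CD34+, ScaI- and YFP+, and mice of both received RU486, which activates the CrePGR recombinase, on days 48 to 61 (males) or 53 to 66 (females). The control titles read Het while the genotype field reads wild type; the promoter that drives CrePGR is not named in the labels, nor whether a library came from 1 mouse or a pool. No expression values were available here for IFE cells.

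In the RNA libraries the bulge markers Cd34, Krt15, Lhx2, Sox9, Nfatc1, Lgr5, Itga6 and Postn were all above 0, with summed levels of 10729 and 13034 FPKM in libraries labelled cKO against 12135 and 11369 in controls. Markers of melanocytes, endothelium and immune cells summed to at most 6.79 FPKM in any library, with Mlana, Cdh5 and Kdr at 0 in at least 1 library each, and those of fibroblasts to 22.5 and 22.03 FPKM in libraries labelled cKO against 16.9 and 8.63 in controls. Among markers of differentiated epidermis (Krt1, Krt10, Ivl, Lor) none was at 0; they summed to 2505 and 4662 FPKM in libraries labelled cKO against 2641 and 7275 in controls. Sebocyte markers summed to 313 and 293 FPKM against 196 and 248. The part of these cells in the results below was not tested. Sox9 itself stood at 71.3 and 80.5 FPKM in libraries labelled cKO against 82.7 and 46.5 in controls (log2 difference 0.28, limma with the replicate block, adjusted p = 0.690), lower than its control in the male pair and higher in the female pair, so these libraries are called "labelled cKO" throughout. In bulk RNA, fewer cells of a type and less RNA per cell cannot be told apart.

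The 334 peaks were spread over the genome and mostly far from genes. Their gap to the nearest locus had a median of 26.2 kb, with quartiles at 8.87 and 59.9 kb, and 52 of them (15.6%) lay more than 100 kb away. Peaks between loci that were also in the IFE list, 269 in number, lay closer to genes, with a median gap of 14.6 kb and 19 of them (7.06%) beyond 100 kb. The 440 peaks between loci of the IFE list alone had a median gap of 17.2 kb, with 9.09% beyond 100 kb. The 2199 of HFSC list 1 alone were like the 334, with a median gap of 24.7 kb and 15.9% beyond 100 kb. Peaks of 1 library share their source, and regions are not replicates of a cell type, so these differences carry no test, and the intervals given for shares below are exact 95% binomial intervals that cover counting error only.

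**Figure D1:**
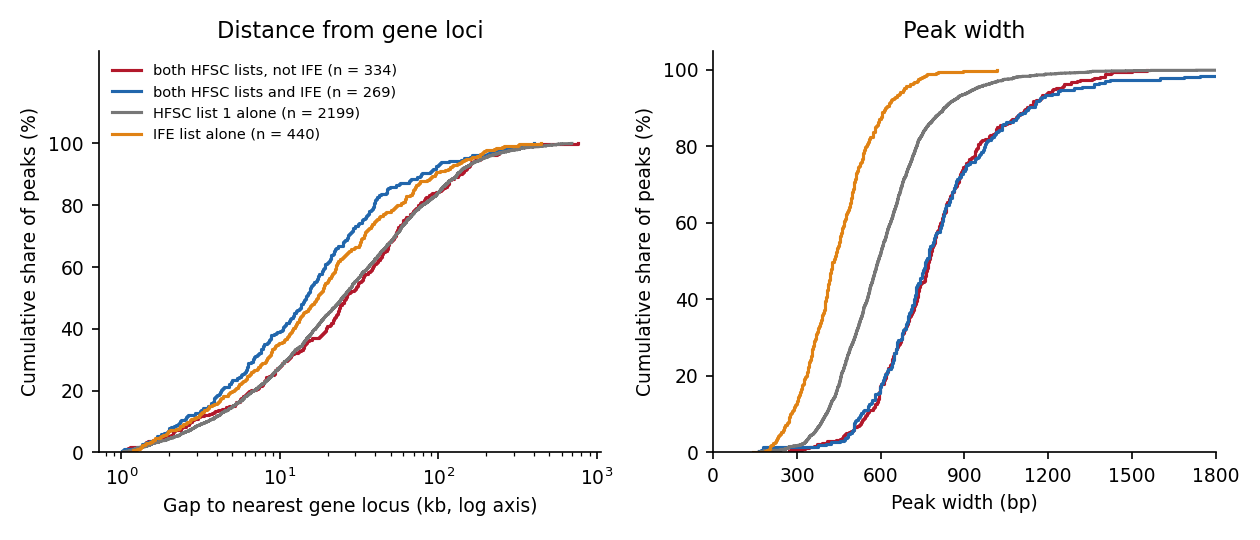
Cumulative share of peaks between gene loci by gap to the nearest locus (left, kb, log axis) and by width (right, bp, 6 wider peaks beyond 1800 bp not shown), for 4 sets of peaks. Peaks of both HFSC lists that lack an IFE peak (red) lie farther from loci (median 26.2 kb) than those with one (blue, 14.6 kb), while the widths of these sets run together (medians 774 and 761 bp).

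The share of peaks without an IFE partner was higher far from genes than close to them. Of the 603 peaks of both HFSC lists between loci, 55.4% (51.3 to 59.4%) had no IFE peak, against 32.5% (30.0 to 35.0%) of 1364 inside loci and 27.5% (18.1 to 38.6%) of 80 at 1 kb or less from one. Within the space between loci it was 44.2% at 1 to 5 kb, 46.0% at 5 to 20 kb, 58.0% at 20 to 50 kb, 74.0% (62.4 to 83.5%) at 50 to 100 kb and 73.2% (61.4 to 83.1%) beyond. Seen from the other side, 41.8% (38.4 to 45.3%) of the 799 peaks of both HFSC lists without an IFE peak lay between loci, against 21.6% (19.3 to 23.9%) of the 1248 with one. For peaks of the IFE list alone that share was 18.7% (17.1 to 20.3%) of 2352, and for peaks of HFSC list 1 alone 43.9% (42.5 to 45.2%) of 5014.

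**Figure D2:**
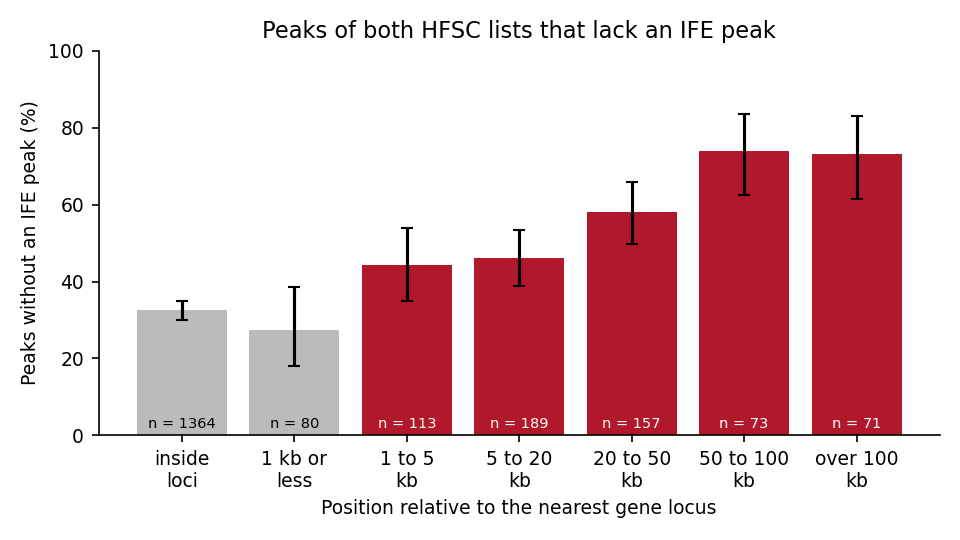
Share of peaks of both HFSC lists that overlap no IFE peak (bars, %) by position relative to the nearest gene locus, with exact 95% binomial intervals and the number of peaks in each bar. The share is 32.5% inside loci and 74.0% at 50 to 100 kb; the red bars hold the 334 peaks described.

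Peaks with and without an IFE peak had like widths. The 334 peaks had a median width of 774 bp (quartiles 645 and 903 bp, range 272 to 1552 bp), and the peaks between loci in all 3 lists one of 761 bp. With the 603 peaks split into 4 classes of width, the share without an IFE peak was 56.3%, 52.98%, 57.6% and 54.7%, from narrowest to widest. Peaks between loci of HFSC list 1 alone were narrower, at a median of 591 bp, but a wide peak is also more likely to meet one of the second list. The lists hold no height, and the strength of binding was not compared.

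Since overlap with a peak of the second list was required, the distances given next are bounded by the rule. They describe the peaks and do not measure agreement between the 2 HFSC libraries. The midpoints of overlapping peaks lay a median of 59.5 bp apart, and 245 of 334 (73.4%) were within 100 bp. The second list covered a median of 78.4% of a peak, and at least 50% in 312 of them. Without asking for a peak of the second list, 2533 peaks met the other conditions, and 2199 of these overlapped none there. The overlapping peaks of the second list were narrower, with a median of 635 bp, and 255 peaks (76.3%) were wider in the first list. The 334 peaks met 329 peaks of the second list, since 5 of those overlapped 2 neighbouring peaks of the first.

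Distances to the IFE list varied widely. The gap to the nearest IFE peak had a median of 100.5 kb with quartiles at 29.1 and 258 kb, and 169 peaks (50.6%) had none within 100 kb. An IFE peak lay within 50 kb of 114 (34.1%). The gap to the nearest other peak of both HFSC lists had a median of 121.9 kb, but those lists share 2047 peaks against 5209 in the IFE list. Only 9 peaks (2.69%; 1.24 to 5.05%) had an IFE peak within 1 kb, the closest at 81 bp. That peak lies 38.6 kb from Grhl2, which encodes a grainyhead-like factor of epithelial cells. Others of the 9 have Meis1, a homeobox gene, or Fosl2, which encodes an AP-1 subunit, as their nearest expressed gene. The absence of a listed peak does not show the absence of binding, as the threshold of the lists is not given.

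By chromosome, 28 peaks (8.38%; 5.64 to 11.9%) were on chromosome 13, which held 4.10% of the peaks of both HFSC lists. Chromosome 7 held 14 (4.19%; 2.31 to 6.93%) against 8.30%, and the X chromosome 1. Many stood alone: the nearest other of the 334 lay a median of 0.921 Mb away. Within 50 kb of another were 64 peaks (19.2%), forming 29 pairs and 2 groups of 3. When any peak of both HFSC lists is counted, 119 (35.6%; 30.5 to 41.0%) had a neighbour within 50 kb, against 103 (38.3%; 32.5 to 44.4%) of the 269 that were also in the IFE list.

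The peak farthest from a locus, on chromosome 15 at 13898711 to 13899455 (mm9, as are the other positions), was 765 kb from one. The second list placed its midpoint within 0.5 bp, and the nearest IFE peak lay 1395 kb away. Next came a pair on chromosome 3 at 21377607 to 21378541 and 21554106 to 21554876, 428 and 421 kb from a locus, with IFE peaks 15.0 and 15.9 kb away. A peak on chromosome 9 at 46803733 to 46804500 was 365 kb away, and 2 peaks beyond Id2 on chromosome 12 were 280 and 275 kb away. The widest peaks, from 1405 to 1552 bp, lay nearest to Trim2, Pvrl1, Gm10782, Ddx19a and Gm17301. At the 1 kb limit the closest peaks inside the set stood 1001, 1004 and 1049 bp from Bhlhe40, Snx20 and Stab1 with Nt5dc2. The closest left out stood 892, 882 and 844 bp from Eif3k, Tuft1 with Gm10972, and Mex3b.

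The genes next to these peaks were more often abundant than tested genes in general. The nearest listed locus was a protein-coding gene by RefSeq name for 187 peaks (56.0%; 50.5 to 61.4%). For 89 (26.6%) it matched no RefSeq name, so its class is unknown. For 76 (22.8%) the nearest locus was listed at 0 in all 4 libraries. Each peak was therefore also given the nearest expressed locus, with a mean of at least 1 FPKM over the 4 libraries, a median of 45.4 kb away; for 213 peaks (63.8%) this was the nearest locus itself. Neighbours can share locus coordinates with other genes in the table, as 131 did here, and gaps are then from the shared locus. The 334 peaks led to 337 genes at 287 distinct positions. Their median control level was 19.1 FPKM, against 12.3 FPKM over all 14455 tested genes, and 53 (15.7%; 12.01 to 20.1%) reached 100 FPKM against 7.69%. Genes nearest to peaks of all 3 lists were like them, with a median of 19.1 FPKM and 15.0% (11.1 to 19.6%) at 100 FPKM. Those nearest to peaks of the IFE list alone had a median of 12.7 FPKM and 10.9% (8.18 to 14.2%) at 100 FPKM.

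Some of the 337 genes held other SOX9 peaks as well. A peak of all 3 lists lay within 10 kb of the locus for 57 (16.9%; 13.1 to 21.4%), against 11.6% of all tested genes. For 34 (10.1%; 7.09 to 13.8%) a peak of both HFSC lists without an IFE peak, lying inside a locus or within 1 kb of one, was found over the same distance, against 4.68%. An IFE peak lay within 10 kb of 159 (47.2%; 41.7 to 52.7%), against 36.3%. Locus length was not matched between these sets.

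Id2 had the most peaks, 4, of any gene. It encodes an inhibitor of basic helix-loop-helix factors that responds to BMP signals. A peak at 25785556 to 25786150 on chromosome 12 lay 4.60 kb from its locus, with an IFE peak 1.58 kb away. The other 3 lay between 26092589 and 26113341, at 312 to 332 kb from Id2 with no expressed locus nearer, and their nearest IFE peaks were 309 to 329 kb away. Id2 stood at 307 and 216 FPKM in libraries labelled cKO against 314 and 198 in controls.

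A further 3 genes were nearest to 3 peaks each. Gas1, which encodes a GPI-anchored co-receptor for hedgehog ligands, had peaks 126 kb below and 91.7 and 132 kb above its locus, and stood at 161 and 114 FPKM in libraries labelled cKO against 182 and 140 in controls. Sykb, the symbol the table uses for the kinase gene Syk, had peaks 57.2, 59.9 and 87.2 kb above it and the nearest IFE peak to any of them was 736 kb away. Its own level was low, at 3.27 and 2.27 FPKM in libraries labelled cKO against 3.43 and 2.18 in controls. The third was 2310081O03Rik, at 1.63 FPKM or less in the 4 libraries.

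**Figure D3:**
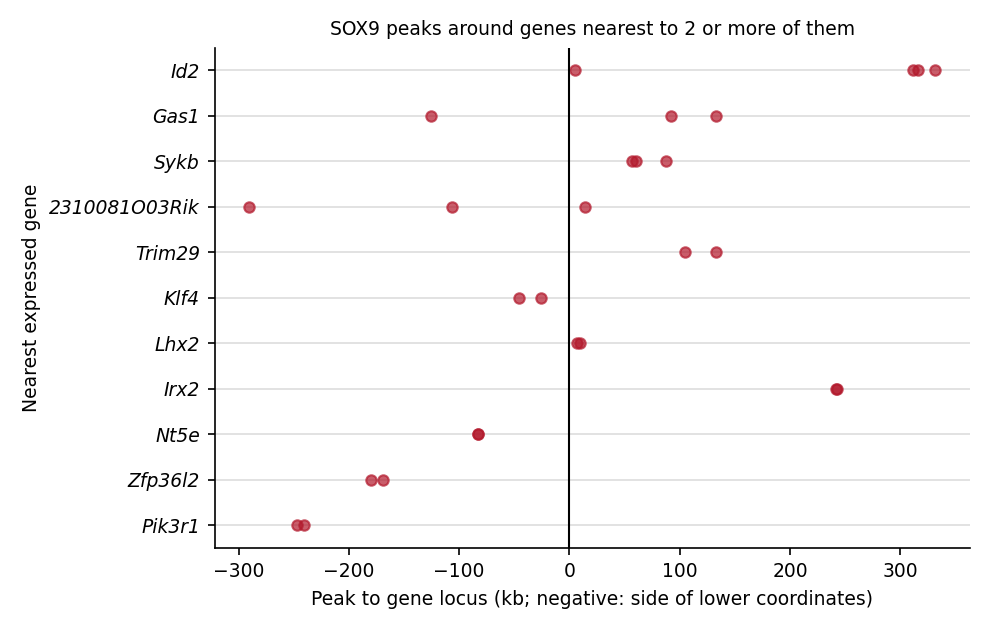
Position of each peak relative to its nearest expressed gene locus (kb, negative on the side of lower coordinates), for 11 of the genes with the most peaks. Id2 has 1 peak at 4.60 kb and 3 between 312 and 332 kb, while the peaks of Lhx2 stand together at 7.29 and 9.26 kb; overlapping points are darker.

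Genes nearest to 2 peaks numbered 43. Klf4, a zinc-finger factor of the epidermal barrier, had peaks 45.7 and 26.2 kb below it. Trim29, which encodes a tripartite-motif protein of stratified epithelia, had peaks 104.6 and 133 kb above it and stood at 789 and 735 FPKM in libraries labelled cKO against 800.5 and 738 in controls. The peaks of Irx2, an iroquois homeobox gene, and of Nt5e, the ecto-nucleotidase CD73, were neighbours that shared 1 peak of the second list, 242 kb from Irx2 and 82.5 and 83.2 kb from Nt5e. Peaks of Pik3r1, the regulatory subunit of PI3-kinase, stood at 247 and 241 kb, and those of the RNA-binding protein gene Zfp36l2 at 180 and 169 kb. The log2 differences (labelled cKO minus control) of these 6 genes lay between -0.45 and 0.30, and none passed the test described below.

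Of 32 tested genes on a list of epithelial transcription factors, 13 (40.6% of the list) were the nearest expressed gene of a peak and so among the 337 neighbours, namely Klf4, Klf6, Irx1, Irx2, Barx2, Fosl2, Fos, Jun, Grhl2, Hopx, Nfib, Runx1 and Meis1. Of all tested genes 2.33% were. The 293 genes nearest to peaks of all 3 lists held 6 of these factors, the 449 nearest to peaks of the IFE list alone held 4, and the 1671 nearest to peaks of HFSC list 1 alone held 21. No test of these differences was made. A gene with more empty space around it has more room for such peaks, and this space was not matched. The same limit holds for the lists below. Fos and Jun, which encode AP-1 subunits, were among the most abundant neighbours, and both were higher in the male libraries than in the female ones. Fos stood at 4197 and 1346 FPKM in libraries labelled cKO against 2950 and 1438 in controls, with a peak 17.9 kb away. Jun stood at 1148 and 520 FPKM against 781 and 619. Its peak was 68.9 kb from a locus at 94715725 to 94834009 on chromosome 4, whose coordinates 4 genes share. The gap to Jun itself was not measured.

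Of 27 tested genes of HFSC identity, 9 (33.3%) were the nearest expressed gene of a peak, with 13 peaks between them. The genes nearest to peaks of all 3 lists held 3 of this list, those nearest to peaks of the IFE list alone 2 and those nearest to peaks of HFSC list 1 alone 14. Cd34, the sialomucin by which HFSCs are sorted, had a peak 43.1 kb below its locus with the nearest IFE peak 451 kb away, and stood at 460 and 463 FPKM in libraries labelled cKO against 652 and 680 in controls. Nfatc1, a factor that holds HFSCs in quiescence, had a peak 57.0 kb away and stood at 46.7 and 14.1 FPKM against 76.7 and 19.8. Nfib, a nuclear factor I gene needed in HFSCs, had a peak 6.26 kb away, and Tcf3, Runx1 and Tnc had 1 each. Tcf3 is here the gene of that symbol on chromosome 10 and not Tcf7l1, which the list holds as a separate entry. Its place among the 9 is therefore uncertain. Tnc, which encodes the matrix protein tenascin C, stood at 27.7 and 17.3 FPKM in libraries labelled cKO against 14.7 and 5.35 in controls, and its peak was 348 kb away. Lhx2 and Id2 were the others besides Sfrp1. An IFE peak lay within 10 kb of the loci of Lhx2, Id2, Nfatc1, Nfib and Sfrp1. None lay that close to the loci of Cd34 and Tnc.

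WNT pathway genes numbered 7 of 29 tested (24.1%, against 2.33% of all tested genes), each with 1 peak. The genes nearest to peaks of all 3 lists held 3 of this list. Those nearest to peaks of the IFE list alone held 1, and those nearest to peaks of HFSC list 1 alone held 9. The 7 were the antagonists Sostdc1, Sfrp1 and Wif1, the receptor gene Fzd3, the ligand gene Wnt7b, the feedback gene Axin2, and Tcf7, which encodes a nuclear partner of beta-catenin. Tcf7 shares its locus coordinates, and so its peak, with other expressed genes such as Ppp2ca and Skp1a. Sfrp1, a secreted frizzled-like inhibitor, had a peak 104 kb away and stood at 117 and 53.1 FPKM in libraries labelled cKO against 162 and 138 in controls. Wif1, which binds WNT ligands, had a peak 59.5 kb away and stood at 5.10 and 5.92 FPKM against 11.2 and 11.0. Wnt7b stood at 16.8 and 18.4 FPKM against 15.4 and 18.4, with a peak 40.5 kb away, and Fzd3 at 26.3 and 16.3 FPKM against 25.5 and 9.41, with a peak 28.2 kb away. For Cd34, Sfrp1 and Wif1 both libraries labelled cKO were below both controls, and for Nfatc1 the groups overlapped.

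Of 29 tested genes of TGF-beta, activin and BMP signalling 2 were neighbours (Id2 and the betaglycan gene Tgfbr3), of 25 matrix and adhesion genes 2 (Col17a1 and Tnc), of 24 ligands, receptors and feedback genes of receptor tyrosine kinases 2 (Dusp6 and Spred2), and of 7 tested SOX genes none. Col17a1, a collagen of hemidesmosomes, stood at 2018 and 1177 FPKM in libraries labelled cKO against 2012 and 1079 in controls and had a peak 6.06 kb away. Other abundant neighbours were Anxa8, an annexin gene with a peak 2.38 kb away, and Cxcl14, which encodes a chemokine, with a peak 60.8 kb away. Anxa8 stood at 1618 and 1588 FPKM in libraries labelled cKO against 1648 and 2443 in controls, and Cxcl14 at 2299 and 1999 FPKM against 1518 and 1757. Gm10260, Trim29 and Cd34, with Fos, Jun and these 3, made up the 8 neighbours of highest control mean.

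Around Sox9 itself the nearest of the 334 peaks lay 116 kb above its locus, on chromosome 11 at 112764591 to 112765606, with an IFE peak 16.3 kb from it. Another lay 231 kb below, at 112411318 to 112412264, with the nearest IFE peak 235 kb away. The nearest expressed locus of the first was Gm11681, a predicted gene that stood at 4.82 and 1.55 FPKM in libraries labelled cKO and was listed at 0 in both controls. That of the second was BC006965.

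Expression in libraries labelled cKO was set against that in controls to see which neighbours differed between the labels. Sox9 RNA was not lower in both pairs, so dependence on SOX9 is not read from these differences. The expression values played no part in choosing the peaks. Tests used limma on log2(FPKM + 1) over 14455 genes with Benjamini-Hochberg adjustment, two-sided, at a threshold of 0.05. With genotype alone limma called none of the 337 neighbours and none of all tested genes (0%); 8 of the 337 had an unadjusted p under 0.05, against 93 (0.643%) of all tested. When the fit was blocked on replicate, so that male was set against male and female against female, 6 neighbours (1.78%; 0.656 to 3.83%) were called, 1 higher and 5 lower, against 0.284% of all tested genes (0.104% higher and 0.18% lower). In that fit 77 neighbours (22.8%; 18.5 to 27.7%) had an unadjusted p under 0.05, against 11.4% of all tested. Genes nearest to peaks of all 3 lists gave 3 calls of 293 (1.02%; 0.212 to 2.96%), those of the IFE list alone 5 of 449 (1.11%; 0.363 to 2.58%) and those of HFSC list 1 alone 10 of 1671 (0.598%; 0.287 to 1.10%). The intervals of these calls overlap, and these sets share genes. Dusp6, Phyhip, Sostdc1 and snoU13 were also among the calls nearest to peaks of HFSC list 1 alone. The call of snoU13 was counted for peaks of all 3 lists as well. In the same limma fit 18.4% (14.2 to 23.4%) of genes nearest to peaks of all 3 lists had an unadjusted p under 0.05. For those of HFSC list 1 alone it was 16.8% (15.1 to 18.7%), and for those of the IFE list alone 14.7% (11.6 to 18.3%). Expression levels were not matched between these sets or to all tested genes. The blocked fit has 1 residual degree of freedom per gene, so each error leans on the spread shared across genes.

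Lhx2 fell in the libraries labelled cKO. It encodes a LIM-homeodomain factor that maintains HFSCs (ENSMUSG00000000247; chromosome 2, 38194801 to 38225253). It stood at 114 and 87.1 FPKM in libraries labelled cKO against 359 and 195 in controls, a log2 difference of -1.40 ± 0.15 (moderated SE; adjusted p = 0.0273 by limma, blocked on replicate). Both libraries labelled cKO were below both controls. With genotype alone limma gave Lhx2 an adjusted p of 0.99965, as it did for the other called genes described next. The 2 peaks of Lhx2 lay side by side above the locus, at 38232539 to 38233161 (7.29 kb) and 38234514 to 38235051 (9.26 kb). An IFE peak lay 7.94 kb from the first, and a peak of all 3 lists lay within 10 kb of the locus. The table gives the predicted gene Gm13584 the same coordinates; it stood at 2.25 and 1.21 FPKM against 9.70 and 3.47 and was not called (adjusted p = 0.113 in the same limma fit).

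Sostdc1, whose secreted product inhibits WNT and BMP ligands, also fell (ENSMUSG00000036169; chromosome 12, 37040756 to 37045039). It stood at 78.1 and 50.7 FPKM in libraries labelled cKO against 163 and 112 in controls, a log2 difference of -1.09 ± 0.12 (limma with the replicate block, adjusted p = 0.0282). Again the groups did not overlap. Its peak at 37016905 to 37017581 lay 23.2 kb below the locus, and the nearest IFE peak was 133 kb from it. No peak of the IFE list or of both HFSC lists lay within 10 kb of the locus.

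Phyhip and Fam132a were the other named protein-coding genes that fell. Phyhip (ENSMUSG00000003469; chromosome 14, 70857283 to 70868639) encodes a protein that binds phytanoyl-CoA hydroxylase. It stood at 59.9 and 61.7 FPKM in libraries labelled cKO against 126 and 128 in controls, a log2 difference of -1.05 ± 0.12 (limma with the replicate block, adjusted p = 0.0297). The libraries of each genotype lay close together. Its peak at 70853550 to 70854431 was 2.85 kb below the locus. Fam132a (chromosome 4, 155336427 to 155340738), which encodes the secreted protein adipolin, stood at 60.4 and 126 FPKM against 176 and 253, a difference of -1.26 ± 0.15 (limma with the replicate block, adjusted p = 0.0347). Its peak at 155346614 to 155347388 was 5.88 kb above the locus. Neither locus had an IFE peak within 10 kb.

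Dusp6 rose. It encodes a phosphatase that switches off ERK downstream of growth factor receptors (ENSMUSG00000019960; chromosome 10, 98725865 to 98730122). It stood at 74.2 and 39.7 FPKM in libraries labelled cKO against 30.2 and 16.6 in controls, a log2 difference of 1.24 ± 0.13 (limma with the replicate block, adjusted p = 0.0273). Each library labelled cKO was above both controls. Its peak at 98699775 to 98700571 was 25.3 kb below the locus, and the nearest IFE peak lay 2312 kb away. Another of the 334 peaks stood beside it, nearest to Galnt4 and Poc1b.

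**Figure D4:**
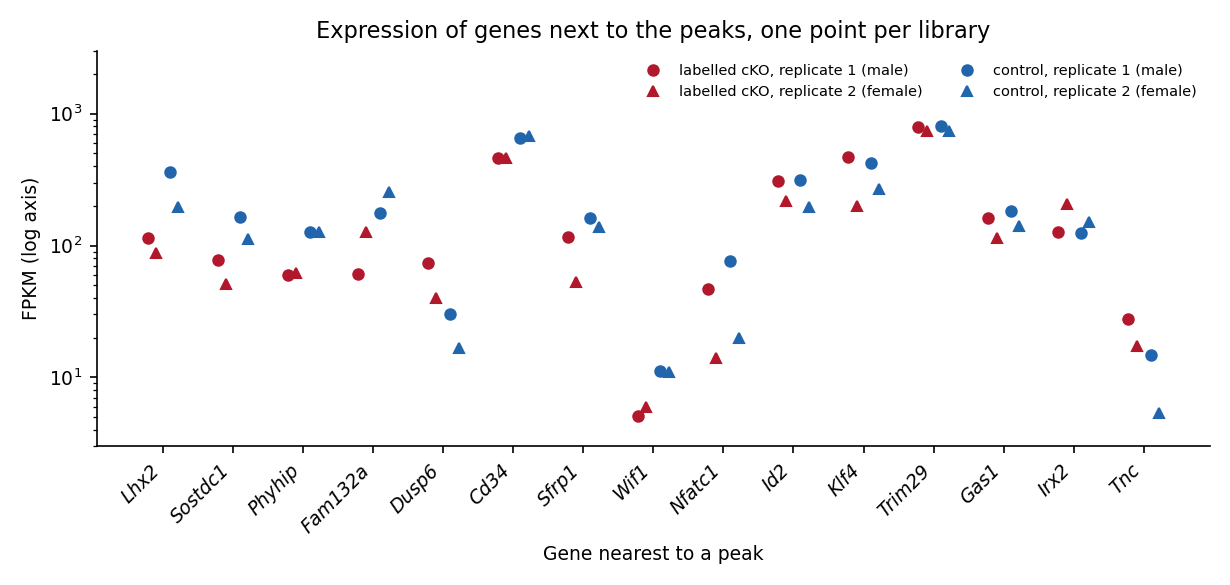
FPKM (log axis) of 15 genes nearest to a peak, 1 point per library, libraries labelled cKO in red and controls in blue. The first 5 genes passed the blocked test: Lhx2, Sostdc1, Phyhip and Fam132a lie lower and Dusp6 higher in libraries labelled cKO, and both red points lie outside the blue ones.

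The sixth call, the small RNA snoU13 within the Hopx locus, stood at 3.42 and 0 FPKM in libraries labelled cKO against 12.1 and 2.33 in controls (-1.65 ± 0.22, limma with the replicate block, adjusted p = 0.0498). It shares locus coordinates with Hopx, and whether reads of the 2 can be told apart was not examined, so the call is uncertain. Hopx stood at 227 and 471 FPKM in libraries labelled cKO against 216 and 343 in controls. Leaving out single libraries was done in the fit on genotype alone. Dusp6 was then at 0.79 without the library labelled cKO replicate 1, Fam132a at -0.74 without the same library, and snoU13 at -2.73 without it, -0.67 without control replicate 1, -0.58 without labelled cKO replicate 2 and -2.64 without control replicate 2. Lhx2 stayed between -1.84 and -0.96, Sostdc1 between -1.39 and -0.78 and Phyhip between -1.07 and -1.03. Without a filter on low values, without the mean trend or with quantile normalization, the blocked fit called none of the 337. Lhx2, Phyhip, Dusp6 and Sostdc1 kept their calls with a pseudocount of 0.1 or 5, and Fam132a only with 5. The call of snoU13 was lost under every one of these choices.

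In the male and in the female pair alike, 10 of the 337 genes changed at least 2-fold the same way, against 0.47% of all tested genes. Of these 3 were higher (0.890%, against 0.194%) and 7 lower (2.08%, against 0.277%). They were the 6 genes called, Gm13584, and 3 of low level, namely SNORA5, Gm11681 and Gm12868. SNORA5 was listed at 0 in both libraries labelled cKO and stood at 2.02 and 4.50 FPKM in controls. Gm12868 stood at 2.99 and 1.07 FPKM in libraries labelled cKO against 0.764 in control replicate 1 and 0 in control replicate 2. Opposite changes of 2-fold in the pairs were seen for 0 neighbours, and for 0.125% of all tested genes. Changes of 2-fold the same way were seen for 4 of 293 genes nearest to peaks of all 3 lists. Of those nearest to peaks of the IFE list alone 5 of 449 changed so, and of HFSC list 1 alone 15 of 1671.

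Most neighbours changed little. Their median log2 difference was -0.04 (quartiles -0.22 and 0.17), against -0.01 (-0.16 and 0.16) over all tested genes. Without control replicate 1 it was 0.0806 and without labelled cKO replicate 2 it was 0.04. In both pairs 128 (38.0%) were lower and 86 (25.5%) higher in libraries labelled cKO, against 29.6% and 28.4% of all tested. Cd34 (-0.53 ± 0.12), Sfrp1 (-0.91 ± 0.21), Wif1 (-0.90 ± 0.17), Nfatc1 (-0.58 ± 0.14) and Tnc (1.20 ± 0.19) missed the threshold, with adjusted p from limma with the replicate block between 0.0897 and 0.247. Of the whole lists, HFSC identity had 1 call lower among its 27 tested genes and WNT 2 lower among 29, with medians of -0.25 and -0.19. The receptor tyrosine kinase list had 3 calls higher among 24 (Dusp6 is the 1 neighbour of these) and the matrix and adhesion list 1 higher among 25, with medians of -0.01 and 0.03. The epithelial factors, the TGF-beta, activin and BMP genes and the SOX genes had no call, with medians of -0.08, -0.05 and 0.25.

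**Figure D5:**
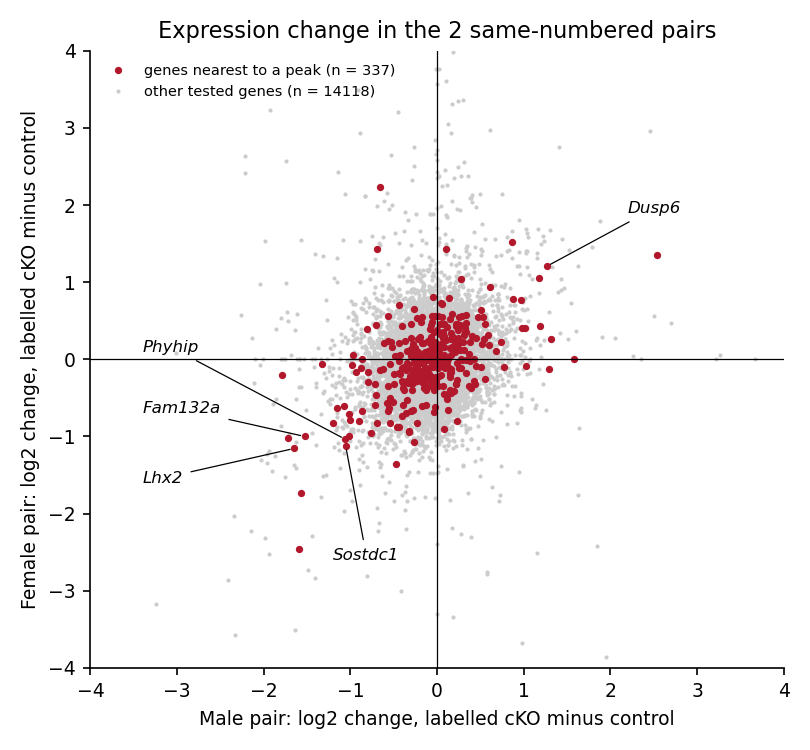
Log2 change (labelled cKO minus control, on log2(FPKM + 1)) in the male pair (x axis) and the female pair (y axis) for 337 genes nearest to a peak (red) and 14118 other tested genes (grey); 1 grey gene lies beyond the axes. Lhx2, Sostdc1, Phyhip and Fam132a lie at -1 or below on both axes and Dusp6 above 1 on both.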

How the data were processed

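For each ChIP library the authors deposited chromosome, start and end of its peaks, with no height or score. How peaks were called, and with which cut-off, is not stated in the labels or files. Tools named in the submitters' processing notes are Cufflinks 1.0.3, TopHat2, TopHat and Bowtie, with build mm9. Expression was deposited by the authors as FPKM, per the file headers, in 1 table of 37298 loci with coordinates but no strand; its depth is unknown. Starts were read as 0-based and printed 1-based. Gaps are the bases between a peak and a locus, computed in Python 3.11.15 with functions checked on simulated intervals. FPKM were tested as log2(FPKM + 1), which understates changes of low genes, with limma 3.58.1 in R 4.3.3 (mean trend, genes with a mean of at least 1 FPKM), on a script tested on simulated data. Genotype alone was the main design. The replicate numbers pair the libraries, since both libraries of a number share sex, age and RU486 days per the labels; across genes, the deviations from group means of libraries with 1 number had a correlation of 0.812. P-values measure only the spread between these 4 libraries.

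Genes were named by rule: those nearest to most peaks (12), those called, up to 6 per list, the 8 of highest control mean, and those changed 2-fold in both pairs, with the 6 peaks of largest gap and the 5 widest. The peaks, lists and rule were chosen with earlier results of these data known. RefSeq names (GRCm38.p6) gave gene classes. 1 gene named by the rule is not reported here. No mm9 genome was used here, so no peak sequence is shown and no motif was searched.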

Additional observations from a re-analysis of the deposited data

Results flagged for a closer look

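In 11 of 39 named neighbours the log2 differences of the male and the female pair had opposite signs. By the naming rule the 39 include genes that changed 2-fold the same way in both pairs, so their share is partly fixed. The sign was the same in both pairs for 63.5% of the 337 neighbours and 58.0% of all tested genes. Each pair is 1 library against 1, sex goes with replicate, age and treatment days, and the differences were not tested. The female minus male log2 differences were 1.03 for Pik3r1 (0.06 in the female pair and -0.97 in the male pair), -0.99 for 2310081O03Rik, -0.81 for Jun, 0.68 for Axin2, -0.60 for Fos and -0.59 for Klf4. Smaller ones, with values near 0 in at least 1 pair for Wnt7b and Tgfbr3, were 0.16 for Id2, -0.13 for Wnt7b, -0.12 for Spred2, 0.0903 for Sykb and -0.0750 for Tgfbr3.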

How the results depend on the processing

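The number of peaks was 312 with at least 50% of a peak covered by the second list, 325 with no IFE peak within 1 kb, 284 beyond 5 kb of every locus, 380 with only expressed loci counted, 329 from the second list, and 374 and 2533 with a single HFSC list, without replicate 1 and without replicate 2. Median widths that moved by more than the spread between the HFSC lists were 765 bp with 50% coverage, 633 bp from the second list, and 621.5 and 611 bp with a single list. Median gaps were 25339 bp with 50% coverage, 26479 bp with no IFE peak within 1 kb, 34118 bp beyond 5 kb, 48528 bp with expressed loci only, 25957 bp from the second list and 25134 and 24977 bp with a single list. The share with an expressed nearest locus stayed between 59.4% and 64.4%, except with expressed loci only (100%).

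With the replicate block limma called 41 genes, 6 of them neighbours of a peak (6 within 100 kb, and 8 when every tested locus within 50 kb of a peak was taken). With the block and another choice, added after seeing the data, it called 33 with a pseudocount of 0.1 (4 neighbours), 78 with a pseudocount of 5 (11 neighbours), 3 with quantile normalization (0 neighbours), and 0 without filter or mean trend. Without the block and with 1 library left out it called 2 to 41 genes, 0 to 1 of them neighbours, and the median change of neighbours lay between -0.21 and 0.0806. The block changed the call of no other named gene than the 6. The planned share of peaks with a SOX motif was not run, since no genome of the files' build was used. Peaks without height and expression without depth limit how firmly either can be read.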
